A study of Homo sapiens with 4 samples.

Results

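The genes described here are 8 that stood among the largest rises with YAP-S94A: ANGPTL4, UPP1, XDH, NT5E, MACC1, AMIGO2, AKAP12 and HMGA2. They were chosen by the measured rise of the YAP-S94A array over the Vector array or over the YAP-WT array, so these 2 contrasts are given as a description only. They are 8 of 12759 genes measured, and 27 probe sets were annotated to exactly 1 of the 8 symbols. Each gene is represented by its probe set with the highest mean intensity over the 4 arrays.

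The arrays measured total RNA of MCF10A cells, an immortalized but non-tumorigenic human mammary epithelial line, infected with a retrovirus. The YAP-S94A culture carried pQCXIH-YAP-S94A, in which the serine of YAP that contacts TEAD transcription factors is changed to alanine. The YAP-W1W2 culture carried a YAP mutated in both of its WW domains, the modules that dock onto proline-rich partners, the YAP-WT culture carried wild-type YAP, and the Vector culture carried the empty pQCXIH retrovirus. All 4 cultures grew in the same medium, with horse serum, EGF, hydrocortisone, insulin and cholera toxin. There was 1 array per group, so no difference below has a replicate check and no test was made. Whether cells were cloned or pooled after infection is not given in the sources used here.

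YAP is a transcriptional coactivator that the Hippo kinases keep out of the nucleus, and most of its known target genes are reached through TEAD factors. The 8 genes have varied roles. UPP1, XDH and NT5E encode enzymes that break down nucleosides and nucleotides. ANGPTL4 is a secreted inhibitor of lipoprotein lipase, AMIGO2 is a leucine-rich-repeat adhesion protein of the cell surface, and AKAP12 is a scaffold that anchors protein kinase A. HMGA2 is an AT-hook protein that bends DNA in chromatin, and MACC1 is a regulator described as an activator of the MET receptor gene in colon cancer.

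The promoter windows of 3 of these genes are shown because they hold the only matches, among the genes with a window, to the core motif of TEAD factors or of AP-1, the FOS-JUN factor that often binds beside TEAD. The windows are from RefSeq (GRCh38.p14) and run from 250 bases before to 50 bases after an annotated start, on the strand of the gene. Capitals mark matches to any motif searched, on either strand. UPP1 is shown at chr7:48088454-48088753 on the plus strand, AMIGO2 at chr12:47079902-47080201 on the minus strand and AKAP12 at chr6:151325281-151325580 on the plus strand.
UPP1: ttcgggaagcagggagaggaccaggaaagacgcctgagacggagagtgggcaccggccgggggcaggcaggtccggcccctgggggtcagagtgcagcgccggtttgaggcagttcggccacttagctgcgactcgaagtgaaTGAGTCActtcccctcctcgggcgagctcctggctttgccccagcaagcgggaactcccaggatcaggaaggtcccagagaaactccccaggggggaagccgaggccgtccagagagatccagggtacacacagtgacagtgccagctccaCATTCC
AMIGO2: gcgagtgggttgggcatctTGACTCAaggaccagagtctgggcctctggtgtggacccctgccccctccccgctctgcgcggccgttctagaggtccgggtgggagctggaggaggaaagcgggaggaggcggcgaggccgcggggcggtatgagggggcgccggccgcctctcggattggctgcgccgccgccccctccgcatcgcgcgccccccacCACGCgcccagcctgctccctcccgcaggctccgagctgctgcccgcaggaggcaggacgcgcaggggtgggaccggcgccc
AKAP12: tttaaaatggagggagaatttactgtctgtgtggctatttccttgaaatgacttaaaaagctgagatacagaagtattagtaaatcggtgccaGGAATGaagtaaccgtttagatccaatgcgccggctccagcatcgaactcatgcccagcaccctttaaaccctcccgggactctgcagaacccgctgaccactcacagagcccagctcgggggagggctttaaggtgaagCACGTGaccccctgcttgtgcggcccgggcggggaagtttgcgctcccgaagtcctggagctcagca

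In the UPP1 window TGAGTCA, an AP-1 match, begins at base −107 from the start, and CATTCC, the reverse complement of the TEAD core GGAATG, begins at base 45 after it. The AMIGO2 window holds TGACTCA at base −231, and the AKAP12 window holds GGAATG at base −157. RefSeq listed 12 windows for 7 of the 8 genes, several starts of one gene counting separately and often overlapping. GGAATG was in 2 of the 12, against 14% of 35116 promoters of the same length, and the AP-1 core TGANTCA was in 3, of which 2 overlap at AMIGO2, against 7.71%. The hypoxia-factor core ACGTG or GCGTG was in 7 of 12, against 48.4% of all promoters, and matches on opposite strands overlap where it reads CACGTG. The PPAR direct repeat with a spacer of any 1 base was in 0 of the 12, against 0.0228% of all promoters. A match is a stretch of letters in a window and not a measured binding site.

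The whole series can be described briefly. The median intensity of the 4 arrays lay between 112.3 and 116.2. Relative to Vector, the median over all measured genes stood at a log2 difference of 0.14 in YAP-S94A, 0.10 in YAP-W1W2 and 0.14 in YAP-WT. On the YAP-S94A array the actin controls were 0.68 (log2) and the GAPDH controls 0.44 above Vector, and on the YAP-W1W2 array 0.80 and 0.44. The log2 rises of the 8 genes in YAP-S94A over Vector ran from 2.93 to 3.62 and were larger than these shifts. YAP1 itself had 3 probe sets, whose log2 differences from Vector ran between −0.24 and 0.60 over the 3 YAP forms; whether they detect the retroviral transcripts is not known. Of 10 basal and epithelial markers, 8 had a probe set of 1 symbol and all 8 were above the intensity floor of 72.9 on every array. KRT5 was at 32347.6 in YAP-S94A and KRT14 at 32895.8, 1.05-fold and 1.01-fold above Vector. In YAP-S94A 3 of the 8, EPCAM, KRT18 and LAMB3, were at least 2-fold above Vector, as were 10.3% of measured genes, and 0 were 2-fold lower. The summed intensity of the 8 markers was 138020 in YAP-S94A, 159020 in YAP-W1W2, 124160 in YAP-WT and 94676.6 in Vector. Of 4 luminal hormone-receptor markers, 2 were above the floor in YAP-S94A, 3 in YAP-W1W2, 2 in YAP-WT and 4 in Vector, with sums of 388.3 to 624.6. Of 4 leukocyte markers with a probe set of 1 symbol, 1 was above the floor in YAP-S94A, 1 in YAP-W1W2, 2 in YAP-WT and 1 in Vector, and their summed intensity lay between 223.6 and 453.5. PTPRC exceeded the floor only in YAP-WT, at 74.6, while CD14 reached 311.9 in Vector and CD3E 256.1 in YAP-WT. Of 5 endothelial markers, 1 was above the floor in YAP-S94A, 1 in YAP-W1W2, 2 in YAP-WT and 2 in Vector, with sums of 600.4 to 904.8; PECAM1 was above it on all arrays, KDR in YAP-WT and Vector, and VWF, CDH5 and TEK on none. Of 6 fibroblast markers, 3 or 4 were above it on each array, with sums of 777.4 to 1422.5. The part of other cells in the results was not tested. In bulk RNA, more cells of a state and more RNA per cell cannot be told apart.

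**Figure D1:**
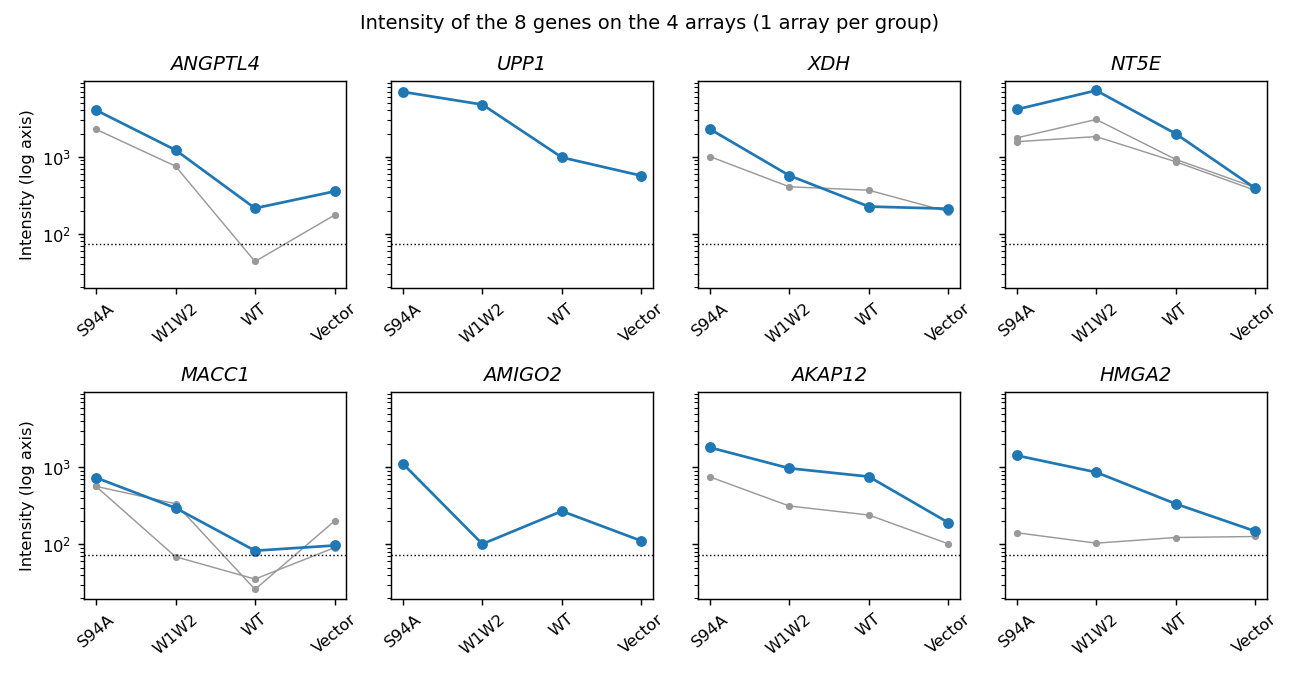
Intensity on a log axis of each of the 8 genes on the YAP-S94A, YAP-W1W2, YAP-WT and Vector arrays, with 1 array per group. Blue points are the main probe set, grey points the other measured probe sets, and the dotted line is the floor of 72.9. The main probe set is highest on the YAP-S94A array in 7 of 8 genes, and NT5E is highest on the YAP-W1W2 array.

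The 3 nucleoside enzymes were all high with both mutants, but in different proportions. UPP1, which splits uridine into uracil and ribose 1-phosphate, had intensities of 6957.7 in YAP-S94A, 4754.9 in YAP-W1W2, 978.6 in YAP-WT and 566.1 in Vector. The 2 mutant arrays thus stood together, 1.46-fold apart, while YAP-W1W2 stood 4.86-fold above YAP-WT. UPP1 stood 12.3-fold above Vector and 7.11-fold above YAP-WT in YAP-S94A cells.

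XDH, which oxidizes hypoxanthine and xanthine to uric acid, had intensities of 2288.4 in YAP-S94A, 569.0 in YAP-W1W2, 225.1 in YAP-WT and 211.0 in Vector. Here YAP-S94A stood alone, 4.02-fold above YAP-W1W2, and YAP-WT and Vector differed by 1.07-fold. A further XDH probe set had 1005.7 in YAP-S94A, 406.6 in YAP-W1W2, 367.1 in YAP-WT and 192.8 in Vector. It keeps YAP-S94A highest, but puts YAP-W1W2 and YAP-WT close to each other.

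NT5E, the cell-surface enzyme CD73 that turns AMP into adenosine, was the exception in order. It had intensities of 4114.1 in YAP-S94A, 7258.1 in YAP-W1W2, 1989.7 in YAP-WT and 389.2 in Vector. It was raised with every form of YAP, by 10.6-fold, 18.6-fold and 5.11-fold over Vector in the same order, and YAP-S94A was 2.07-fold above YAP-WT. Its other 2 measured probe sets also had the order YAP-W1W2, YAP-S94A, YAP-WT and Vector. In these 2 the rise of YAP-S94A over Vector was smaller, with 1565.8 in YAP-S94A against 365.6 in Vector for the first and 1755.6 in YAP-S94A against 398.1 in Vector for the second, and YAP-S94A was less than 2-fold above YAP-WT in both. NT5E is the only one of the 8 genes in a list of 22 known YAP-TEAD targets.

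ANGPTL4 had the largest rise of the 8 over YAP-WT. Its intensity was 4028.7 in YAP-S94A, 1221.6 in YAP-W1W2, 213.8 in YAP-WT and 354.6 in Vector. In YAP-S94A it stood 11.4-fold above Vector and 18.8-fold above YAP-WT, and in YAP-WT it stood 1.66-fold below Vector. The second ANGPTL4 probe set had the same order, with 2271.1 in YAP-S94A, 753.0 in YAP-W1W2, 43.5 in YAP-WT, which is under the floor, and 174.4 in Vector.

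AMIGO2 was near background on every array but YAP-S94A and YAP-WT. It had intensities of 1115.5 in YAP-S94A, 101.2 in YAP-W1W2, 270.4 in YAP-WT and 111.0 in Vector. YAP-S94A was 11.0-fold above YAP-W1W2 and 4.13-fold above YAP-WT, and YAP-W1W2 and Vector differed by 1.10-fold. It is the only one of the 8 genes with YAP-W1W2 as the lowest array, and it rests on 1 probe set.

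AKAP12 rose in a graded way. Its intensity was 1816.2 in YAP-S94A, 974.2 in YAP-W1W2, 759.5 in YAP-WT and 191.8 in Vector. YAP-W1W2 and YAP-WT were 1.28-fold apart, and YAP-S94A was 1.86-fold above YAP-W1W2 and 9.47-fold above Vector. The other measured AKAP12 probe set had 753.6 in YAP-S94A, 315.1 in YAP-W1W2, 240.7 in YAP-WT and 101.7 in Vector, which is the same order. Of the 3 AKAP12 probe sets too dim to count as measured, 2 were also highest in YAP-S94A, at 210.2 and 173.5, and the last was under the floor on all 4 arrays.

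MACC1 was dim outside the mutant arrays. Its main probe set had 735.7 in YAP-S94A, 297.4 in YAP-W1W2, 82.8 in YAP-WT and 96.7 in Vector. YAP-WT and Vector, both just above the floor, differed by 1.17-fold. YAP-S94A stood 8.89-fold above YAP-WT and 7.61-fold above Vector. The other 2 measured MACC1 probe sets were alike in YAP-S94A, at 567.0 and 567.2, and both were under the floor in YAP-WT, at 35.4 and 26.0. They differed elsewhere, since the first had 69.1 in YAP-W1W2 and 90.7 in Vector, and the second had 337.2 in YAP-W1W2 and 201.1 in Vector. By the second, YAP-S94A was 2.82-fold above Vector.

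HMGA2 had 9 probe sets, of which 2 were bright enough to count as measured. The main one had 1429.2 in YAP-S94A, 865.5 in YAP-W1W2, 336.3 in YAP-WT and 148.4 in Vector, a graded order with YAP-S94A 1.65-fold above YAP-W1W2 and 9.63-fold above Vector. The other measured one was nearly flat, with 141.6 in YAP-S94A, 103.7 in YAP-W1W2, 122.8 in YAP-WT and 126.6 in Vector. Among the 7 dim ones, 1 had 232.2 in YAP-S94A, 94.3 in YAP-W1W2, 10.5 in YAP-WT and 4.4 in Vector, and another had 229.2 in YAP-S94A, 84.4 in YAP-W1W2, 24.0 in YAP-WT and 83.3 in Vector. A further 2 of the 7 stood at 124.3 and 123.9 in YAP-S94A, and the last 3 were under the floor on all arrays. HMGA2 thus differs between its probe sets, and which transcripts each one reads is not known here.

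Over all probe sets of the 8 genes, 16 of 27 were measured, and 13 of these 16 were highest in YAP-S94A and 3, all of NT5E, in YAP-W1W2. YAP-S94A was at least 2-fold above Vector in 15 of the 16, the exception being the flat HMGA2 probe set, and at least 2-fold above YAP-WT in 13.

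By rank among the measured genes, 7 of the 8 lay in places 3 to 11 of YAP-S94A over Vector, from UPP1 at place 3 to AKAP12 at place 11, and MACC1 lay at place 22. In YAP-S94A over YAP-WT, ANGPTL4 lay at place 2, XDH at 11, MACC1 at 12 and UPP1 at 23, whereas NT5E lay at place 585. Genes beside them that are not among the 8 were KIFC1, whose Vector value was under the floor, CDC45, DUSP6, RMI2 and HJURP, at places 1, 2, 5, 8 and 12 of YAP-S94A over Vector. YAP-S94A was at least 2-fold above Vector in all 8 genes, as in 10.3% of measured genes, and at least 2-fold above YAP-WT in all 8, as in 5.06%; since these contrasts chose the genes, nothing is read from either count. YAP-S94A was the highest of the 4 arrays in 7 of 8, where it was highest in 30.5% of measured genes, and at least 2-fold above each other array in 4 of 8, namely ANGPTL4, XDH, MACC1 and AMIGO2, against 0.643%. By main probe sets, both mutants were at least 2-fold above both YAP-WT and Vector in 6 of 8, all but AMIGO2 and AKAP12, against 0.509%. XDH, NT5E, MACC1 and HMGA2 each had a further measured probe set that fell short of this. By a further MACC1 probe set YAP-S94A was also less than 2-fold above YAP-W1W2, at 1.68-fold. These last counts use the same YAP-S94A array and are descriptions too.

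The comparison of YAP-W1W2 with YAP-WT uses neither the YAP-S94A array nor the Vector array, and asks whether the same genes differ with another mutant of YAP. It was added after the data were seen, and its YAP-WT array also served in the contrast that picked some of the 8. In it, 6 of the 8 passed 2-fold upwards, as did 3.91% of measured genes, and 1, AMIGO2, passed it downwards, as did 5.59%. ANGPTL4 was 5.71-fold higher, UPP1 4.86-fold, NT5E 3.65-fold, MACC1 3.59-fold, HMGA2 2.57-fold and XDH 2.53-fold, while AKAP12 differed by 1.28-fold and AMIGO2 was 2.67-fold lower. The median over the 8 was a log2 difference of 1.60, and the median over all measured genes was −0.04. Of the 16 measured probe sets, 10 were at least 2-fold higher and 1 lower. For 3 of the 6 genes a further measured probe set did not show the rise: HMGA2 stood at −0.24 (log2) and XDH at 0.15 by their others, and MACC1 had 1 with both arrays under the floor.

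**Figure D2:**
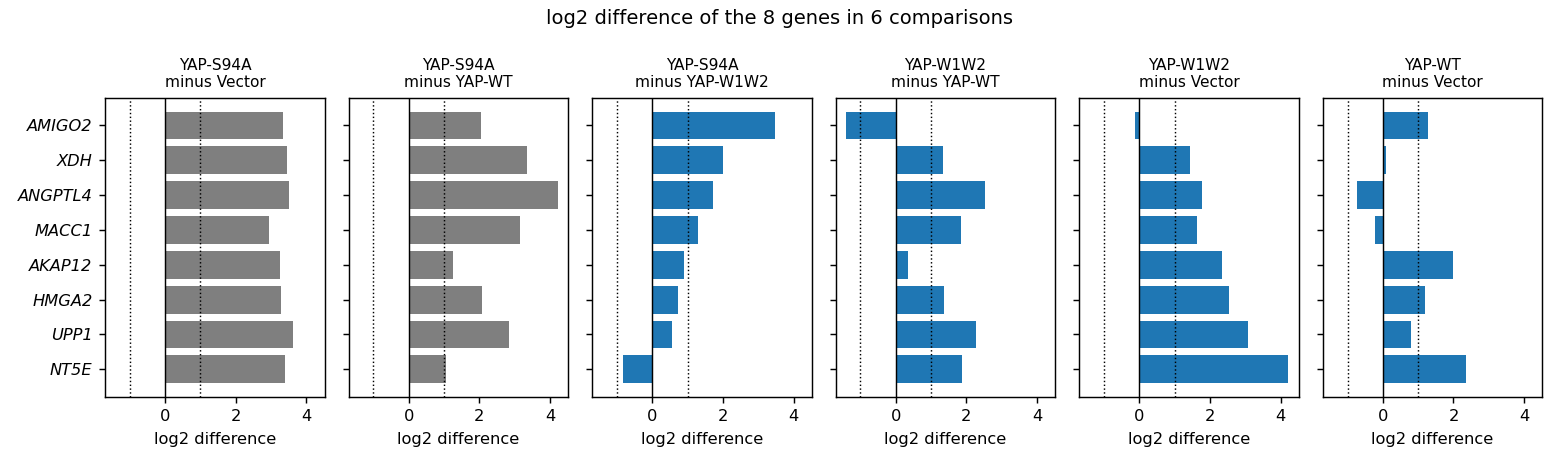
The log2 difference of the main probe set of each of the 8 genes in 6 comparisons, with genes ordered by YAP-S94A minus YAP-W1W2. Grey bars are the 2 contrasts that picked the genes, blue bars the other 4, and dotted lines mark 2-fold. In YAP-W1W2 minus YAP-WT, 6 bars pass 2-fold upwards and AMIGO2 passes it downwards.

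The 2 mutants were also set against each other. YAP-S94A was at least 2-fold above YAP-W1W2 in 4 of 8 genes, where 4.45% of measured genes were, and in 0 was it at least 2-fold lower, where 4.98% were. High values on this YAP-S94A array picked the 8 genes, so both counts are a description and nothing is read from them. The 4 were AMIGO2 at 11.0-fold, XDH at 4.02-fold, ANGPTL4 at 3.30-fold and MACC1 at 2.47-fold. AKAP12, HMGA2 and UPP1 were between 1.46-fold and 1.86-fold higher in YAP-S94A, and NT5E was 1.76-fold lower.

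Against Vector, YAP-W1W2 was at least 2-fold higher in 7 of 8 genes, where 11.4% of measured genes were, with AMIGO2 as the exception. YAP-WT stood at least 2-fold above Vector in 4 of 8, as in 9.11% of measured genes, namely NT5E at 5.11-fold, AKAP12 at 3.96-fold, AMIGO2 at 2.44-fold and HMGA2 at 2.27-fold. In YAP-WT, UPP1 stood 1.73-fold and XDH 1.07-fold above Vector, and MACC1 1.17-fold below it. With the mean over all probe sets of a gene these counts were 4 for YAP-W1W2 and 2 for YAP-WT. These contrasts share the Vector array with the one that picked the genes, so a low Vector value raises all of them. The median log2 difference over the 8 was 2.06 for YAP-W1W2 and 0.98 for YAP-WT, and over all measured genes it was 0.10 and 0.14. By main probe sets the genes differed in this respect: UPP1, ANGPTL4, XDH and MACC1 were within 2-fold of Vector in YAP-WT yet at least 2.70-fold above it in YAP-W1W2. Other measured probe sets departed from this. In YAP-W1W2, XDH was 2.11-fold above Vector by its other, while MACC1 was 1.68-fold above by a further one and under the floor by another. In YAP-WT, further probe sets put ANGPTL4 at least 2.39-fold and MACC1 at least 2.76-fold below Vector.

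The genes closest to each of the 8 in their pattern over the 4 arrays were found by the Euclidean distance between log2 intensities, each taken relative to the gene's own mean, over 11885 genes above the floor on all arrays. With 4 arrays such a likeness says nothing of shared control. The same few genes came back. IER3, an immediate early survival gene, was among the 3 nearest to ANGPTL4, UPP1, XDH, MACC1 and HMGA2, with intensities of 8414.6 in YAP-S94A, 4632.8 in YAP-W1W2, 1481.3 in YAP-WT and 1064.6 in Vector. HBEGF, a ligand of the EGF receptor, was nearest to ANGPTL4 and UPP1 and also among the 3 nearest to MACC1, with 801.5 in YAP-S94A, 628.3 in YAP-W1W2, 109.5 in YAP-WT and 105.3 in Vector. Both genes were high in the mutants and low in YAP-WT and Vector.

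BMAL2, a bHLH-PAS factor, was nearest to HMGA2 at a distance of 0.31 and among the 3 nearest to UPP1 and XDH. FOSL1, which encodes the AP-1 subunit FRA1, was nearest to XDH at 0.84. The closest match of all was DUSP6, the ERK phosphatase, to AKAP12, at 0.21, followed for AKAP12 by PLK1 and the lamin gene LMNB1. DUSP6 had 1342.3 in YAP-S94A, 687.9 in YAP-W1W2, 474.4 in YAP-WT and 120.5 in Vector.

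NT5E and AMIGO2 had other neighbours. Nearest to NT5E were CDC6, a loader of the replicative helicase, RRM2, a subunit of ribonucleotide reductase, and DAW1, all highest in YAP-W1W2. Nearest to AMIGO2, at distances of 1.04 to 1.19, were HIRA, CCNA1 and PIP5K1A; ANGPTL4 was matched no more closely, with its 3 nearest genes at 1.15 to 1.26. The other neighbours were FST, the activin-binding follistatin, of ANGPTL4, LIF, a cytokine, of MACC1 and the deubiquitinase gene STAMBPL1 of HMGA2. Among the 8 themselves, XDH and MACC1 were closest, at 0.54, and NT5E and AMIGO2 farthest apart, at 3.54.

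**Figure D3:**
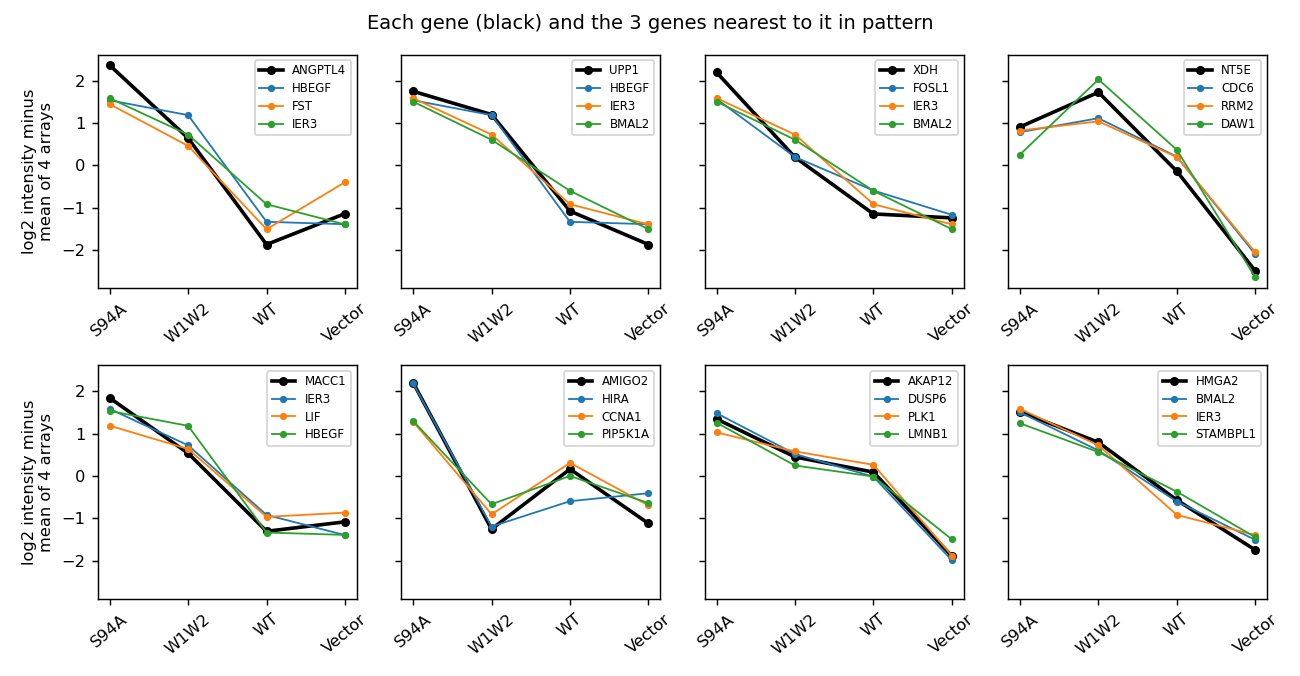
The log2 intensity relative to each gene's mean over the YAP-S94A, YAP-W1W2, YAP-WT and Vector arrays, for each of the 8 genes in black and the 3 genes nearest to it in colour. IER3 appears in 5 panels, of the 8 genes AMIGO2 alone dips in YAP-W1W2 below both YAP-WT and Vector, and NT5E peaks in YAP-W1W2.

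The pathways of the 8 genes were then read from lists of their other genes, counted at 2-fold in YAP-S94A against Vector or YAP-WT. The share of all measured genes that fell by 2-fold or more was 6.53% in YAP-S94A against Vector and 6.27% against YAP-WT. In the list for salvage and breakdown of nucleosides and nucleotides 26 of 32 genes were measured; 7 were higher and 3 lower than in Vector, and the median log2 difference was 0.04, against 0.14 for all measured genes. Without UPP1, XDH and NT5E, 4 of 23 were higher and 3 lower. Against YAP-WT, 4 of the 26 were higher and 2 lower. Without the same 3 genes, 1 of 23 was higher, where 5.06% of all measured genes were, and 2 were lower. PNP, the purine nucleoside phosphorylase, had 4641.4 in YAP-S94A, 3402.9 in YAP-W1W2, 1740.3 in YAP-WT and 1643.9 in Vector, an order like that of UPP1. The others higher than in Vector were DCK at 2.47-fold, TK1 at 2.33-fold and HPRT1 at 2.10-fold. Against YAP-WT these stayed within 2-fold in YAP-S94A. TK1 was highest in YAP-WT, at 4207.5 against 2618.4 in YAP-S94A. The aldehyde oxidase AOX1, a relative of XDH, went the other way, with 1338.4 in YAP-S94A, 1452.7 in YAP-W1W2, 4668.3 in YAP-WT and 4615.7 in Vector. CDA, which deaminates cytidine, was under the floor in YAP-S94A and at least 3.23-fold lower than in Vector.

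Around NT5E, the list for extracellular nucleotides and adenosine had 12 of 19 genes measured, with 4 higher and 2 lower than in Vector. SLC29A1, an equilibrative nucleoside transporter, stood 3.21-fold above Vector in YAP-S94A, the concentrative transporter SLC28A3 at least 3.35-fold and the adenosine receptor ADORA2B 2.56-fold. ENPP1, which makes AMP from extracellular ATP, was 5.97-fold lower, with 174.7 in YAP-S94A, 180.6 in YAP-W1W2, 785.6 in YAP-WT and 1043.7 in Vector. The ectonucleotidase ENTPD3 was 2.49-fold lower than in Vector but at least 2.39-fold higher than in YAP-WT. Against YAP-WT, 4 genes of the list were higher and 1, ENPP1, lower. The 4 were NT5E, ENTPD3, ENTPD1 at 2.62-fold and ADORA1 at 2.00-fold, and the last 2 were within 2-fold of Vector. By main probe sets SLC29A1, SLC28A3 and ADORA2B stood only 1.72-fold, 1.29-fold and 1.92-fold above YAP-WT.

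Around ANGPTL4, 6 of 15 genes of the angiopoietin-like and lipase list were measured, and in YAP-S94A 3 of them passed 2-fold over Vector, ANGPTL4 included. The endothelial lipase gene LIPG had 2329.4 in YAP-S94A, 1209.7 in YAP-W1W2, 689.7 in YAP-WT and 1088.8 in Vector. LIPE, the hormone-sensitive lipase, was 3.54-fold higher than in Vector by its main probe set and 0.57 (log2) by another. In the list of PPAR targets, genes often induced together with ANGPTL4 by fatty acids, ANGPTL4 was the only one of 9 measured that was higher than in Vector by main probe sets, and PDK4 was at least 25.8-fold lower. Other probe sets of CPT1A and ADTRP stood at 1.26 and at least 1.69 (log2), and of ACAA2 and PDK4 at −1.38 and −2.80. In the hypoxia list, whose genes respond to low oxygen as ANGPTL4 does, it was again the only one of 14 higher, and 2 were lower, CA12 at 2.42-fold, with 5 of its 6 measured probe sets past 2-fold and the last at −0.47 (log2), and NDRG1 at 2.37-fold. ADM, also of this list, was 2.20-fold lower than in YAP-WT.

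Of the MACC1 and HGF-MET list 14 of 15 genes were measured, and in YAP-S94A 3 were higher and 0 lower by main probe sets, with Vector as the base. By other probe sets ST14 stood at 1.18 and GAB1 at −1.18 (log2). Besides MACC1 the 3 were its SH3-domain relatives SH3TC2, at 3.03-fold, and SH3TC1, at 2.71-fold by its main probe set and −0.56 (log2) by another. Unlike MACC1, both were close to YAP-WT by main probe sets, SH3TC2 1.24-fold above it and SH3TC1 1.03-fold below. MET itself had 4153.5 in YAP-S94A, 4703.3 in YAP-W1W2, 7406.0 in YAP-WT and 4119.0 in Vector by its main probe set. Against YAP-WT, the membrane protease ST14 was 2.28-fold higher and the urokinase gene PLAU 2.61-fold. By main probe sets, AKAP12 was the only one of 15 measured genes higher than in Vector in the list of AKAP scaffolds and protein kinase A. Other probe sets of AKAP7, AKAP10 and PRKAR1B stood at 1.79, at least 1.14 and 1.15 (log2). AKAP13 was 2.19-fold lower by its main probe set, and the other 5 of its 6 stayed within 2-fold, the nearest to 0 at −0.06 (log2). AMIGO2 was the only measured gene of its family.

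HMGA1, the paralog of HMGA2, had 5266.1 in YAP-S94A, 2765.7 in YAP-W1W2, 3839.2 in YAP-WT and 1213.0 in Vector. It was high with every form of YAP and stood 1.37-fold above YAP-WT in YAP-S94A by this main probe set, but 1.74 (log2) above it by its other measured one. As the probe sets of HMGA2 also disagree, no difference between the paralogs is drawn from these values. In the list of HMGA genes and the let-7 axis, a microRNA circuit known to repress HMGA2, 4 of 6 measured genes were higher than in Vector and 0 lower, and by main probe sets HMGA2 alone was at least 2-fold higher than in YAP-WT. The mRNA-binding IGF2BP2 was 2.68-fold higher than in Vector by its main probe set and 0.77 (log2) by another, and MYC was 2.10-fold higher. After median centring 3 of the 6 genes were higher.

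A list of ERK output genes was included because DUSP6 was known from earlier results of these data to stand near the 8 genes, so its count is no independent evidence. Of its 17 measured genes, 15 passed 2-fold upwards in YAP-S94A over Vector, as did 10.3% of all measured genes, and 1 downwards, as did 6.53%. The median log2 difference of the 17 was 1.88. In YAP-W1W2 the counts over Vector were 13 upwards and 1 downwards, and in YAP-WT 7 and 1. Over all measured genes the share upwards was 11.4% for YAP-W1W2 and 9.11% for YAP-WT, and the share downwards 8.4% and 4.95%. IER3 was 7.90-fold, ETV5 6.86-fold, FOSL1 6.67-fold and SPRY4 6.42-fold above Vector in YAP-S94A, while ETV5 had a further probe set at −0.31 (log2) and the receptor gene EPHA4 was at least 8.83-fold lower by its main probe set and −0.91 (log2) by another. Against YAP-WT 5 of 17 were higher, as were 5.06% of all measured genes, including IER3 at 5.68-fold and FOSL1 at 4.48-fold. The 1 lower than in YAP-WT was EPHA4, by its main probe set but short of 2-fold by its other one.

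A list of YAP-TEAD targets gives the values of genes reached through TEAD on the same arrays. In YAP-S94A, 1 of its 22 measured genes, NT5E, stood at least 2-fold above YAP-WT and 11 stood at least 2-fold below it. The median log2 difference of the list was −1.02. The 8 genes had a median of 2.46 in the same comparison, which helped to pick them, so the distance between the medians is no finding.

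**Figure D4:**
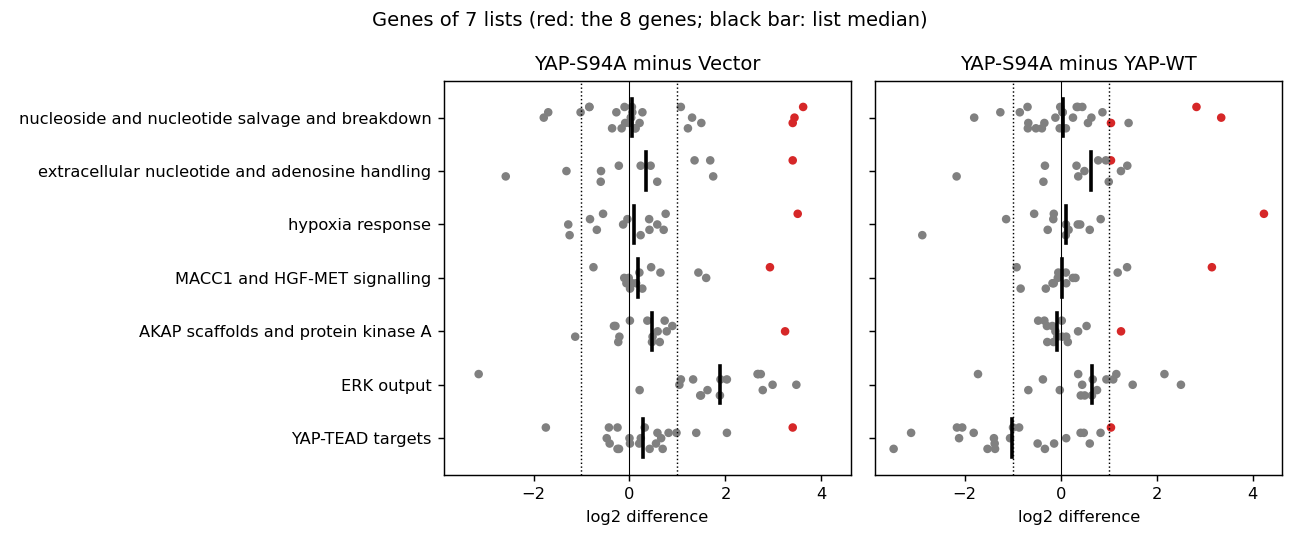
The log2 difference of each measured gene of 7 lists in YAP-S94A minus Vector on the left and YAP-S94A minus YAP-WT on the right. Red points are genes among the 8, grey points other genes, black bars list medians and dotted lines 2-fold, with intensities under the floor set to it. The left contrast helped to pick the red genes, so the high place of the red points there is no finding. The ERK output list holds none of the 8, and its grey points lie mostly above 2-fold on the left, with DUSP6 at 3.48.

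Scaling bears on the shares of all genes changed 2-fold. After each array was centred on its median, 47.1% of the genes changed 2-fold between YAP-S94A and Vector were higher, against 61.2% as deposited. That share was 34.9% against 47.2% for YAP-S94A and YAP-W1W2, 57.7% against 41.2% for YAP-W1W2 and YAP-WT, and 50.1% against 64.8% for YAP-WT and Vector. For YAP-S94A and YAP-WT it was 46.0% against 44.7%, and for YAP-W1W2 and Vector 54.9% against 57.7%. All 48 differences of the 8 genes stayed on their side of 2-fold under this centring, and 1 changed sign, XDH in YAP-WT minus Vector, at −0.07 (log2) against 0.09. Since the 8 were picked for large differences, little is read from this.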

How the data were processed

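Total RNA of 4 MCF10A cultures was measured on 1 Affymetrix array each. The deposited values are linear intensities made with GCOS, per the submitters' processing notes; the version, scaling target and genome build are not given in the sources used. Groups came from the labels. Of 54675 probe sets, 62 controls were kept apart; 41097 had 1 symbol in the platform annotation, giving 19775 genes. Trimmed means ran from 458.4 to 503.3, a ratio of 1.10, so values were used as deposited. Intensities under 72.9, the 40th percentile, were set to that floor before log2; a fold with 1 side there is written as at least that fold. "Measured" means a mean intensity over the arrays of 113.6 or more, which is the median probe set, and a gene is its brightest probe set. Called means at least 2-fold. With 1 array per group no test, error or interval was possible, and the number of arrays limits the precision.

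The members and lists were chosen with earlier results of these data known. Named genes were the 8, up to 6 genes per list changed 2-fold between YAP-S94A and Vector or YAP-WT, ranked by the difference from Vector, close paralogs, and the 3 nearest genes in pattern. KIFC1, CDC45, RMI2, HJURP, YAP1, MET, ENTPD1, ADORA1, genes with a further probe set past 2-fold and the cell type markers were named beside these. Alternatives were the mean over probe sets, probe sets without a shared-sequence suffix, median centring, quantile normalization, no floor, and log2 of intensity plus 50. Python 3.11.15, numpy and pandas were used, and the counting was tested on simulated data.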

Additional observations from a re-analysis of the deposited data

How the results depend on the processing

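Over 6 alternatives, 264 of 282 recomputed differences of the 8 genes kept their side of 2-fold, and 1 of these changed sign below it, XDH in YAP-WT minus Vector after median centring, at −0.07. ANGPTL4 gave no value without shared-suffix probe sets, having no other. The median over the 8 of YAP-S94A minus YAP-W1W2 was 0.98 after median centring and 0.99 after quantile normalization, against 1.10 in the values as deposited. With the mean over probe sets, the count of genes at least 2-fold higher than Vector was 2 for YAP-WT and 4 for YAP-W1W2, and with log2 of intensity plus 50 it was 2 for YAP-WT. HMGA2 changed most: without shared-suffix probe sets its log2 difference was 0.16 for YAP-S94A minus Vector, 0.21 for YAP-S94A minus YAP-WT, −0.24 for YAP-W1W2 minus YAP-WT, −0.29 for YAP-W1W2 minus Vector and −0.044 for YAP-WT minus Vector, since a flat probe set then stands for the gene. With the mean over probe sets NT5E stood at 0.69 for YAP-S94A minus YAP-WT and XDH at 0.74 for YAP-W1W2 minus YAP-WT. Of 264 recomputed list counts, 252 stayed within 1.5 times. No paired analysis was possible because each group has 1 array. Signal near background limits the MACC1 and AMIGO2 folds, whose lower arrays stood close to the floor.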
